A study of Mus musculus with 20 samples.

Results

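Cytosolic ribosomal protein genes were followed in microglia sorted from the brains of mice with and without amyloid plaques and with and without the receptor Trem2. The genes were chosen by name: every gene with a probe set of its own whose symbol starts with Rpl or Rps and a digit, together with Rpsa, Rplp0, Rplp1 and Rplp2, leaving out the Rps6k kinases and pseudogene symbols. This gave 63 of the 19751 genes that had a probe set of their own, and 61 of them passed the filter on low values, among 12728 genes tested in all. The 63 genes comprised 30 proteins of the large subunit, 21 of the small subunit, 3 of the stalk and 9 copies or relatives. The name rule takes in some genes whose products are not standard ribosomal proteins: Rps19bp1 encodes a nucleolar protein that binds Rps19, Rps23rg1 is a retrogene, and Rps4l is annotated as a transcribed pseudogene. The 54 tested genes outside the copies and relatives are called core genes below.

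A cytosolic ribosome has a small subunit, which reads the mRNA, and a large subunit, which joins amino acids, and each holds its own set of proteins around ribosomal RNA. Ribosomal protein mRNAs are among the most abundant in most cells, and they start with a run of pyrimidines, the terminal oligopyrimidine (TOP) tract, through which Larp1 and the kinase mTOR set how much of them is translated. Microglia, the resident macrophages of the brain, change shape, lipid handling and secretion around plaques, and Trem2, a lipid-sensing receptor on their surface, is known to be needed for much of that response.

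The pyrimidine run at the transcript start is the sequence feature for which these genes are best known, so 4 core genes are shown in which CTCTTT or CTTTCC began within 4 bases of an annotated start. Each window is read on the gene's own strand, starts 10 bases before the annotated start and holds 30 bases. Capitals mark CTCTTT and CTTTCC only, and a stretch of pyrimidines can extend beyond them. Sequences are from RefSeq, build GRCm38.p6.
Rps6, chr4:86857348-86857377, minus strand: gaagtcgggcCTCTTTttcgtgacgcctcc
Rps10, chr17:27635225-27635254, minus strand: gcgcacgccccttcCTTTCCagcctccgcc
Rpl28, chr7:4792955-4792984, plus strand: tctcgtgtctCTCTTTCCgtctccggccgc
Rpl38, chr11:114668570-114668599, plus strand: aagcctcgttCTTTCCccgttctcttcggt

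RefSeq promoter windows, from 250 bases before the start to 50 after it, matched 51 of the 63 genes (81%). A gene was counted if any of its listed windows held the motif. CTCTTT or CTTTCC on the sense strand in the first 50 bases was found in 13 of these 51 genes (25.5%), against 4.16% of the 27025 genes in the table. CCGGAAG, the core bound by ETS factors, was searched on both strands and found in 19 of 51 (37.3%), against 9.93% of all genes. AAGATGG, the core bound by YY1, was found on either strand in 5 of 51 (9.8%), against 7.28% of all genes, and its overlap with the ETS core, present in 5 genes of the table, was found in 0 of the 51. These are matches of letters in a window and not measured binding.

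The 19 arrays used here fell into 4 groups of littermates aged 8.5 months. The groups were 6 Trem2-/-5XFAD arrays, from mice that carry the 5XFAD transgenes and lack Trem2; 5 5XFAD arrays, from mice that carry the transgenes and have Trem2; 4 Trem2-/- arrays, from mice without the transgenes that lack Trem2; and 4 WT arrays. The 5XFAD transgenes encode mutant human amyloid precursor protein and presenilin, which are made in neurons, and the mice form plaques. A further array, titled as WT but carrying a Trem2-/- genotype label, entered no main comparison and was used only in alternative settings. The sorting gate, the sex of the mice and the number of mice behind an array are not stated in the labels.

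Trem2 itself, on the log2(intensity + 1) scale used for all levels, lay between 6.75 and 7.60 in Trem2-/-5XFAD and between 11.45 and 11.80 in 5XFAD. It lay between 6.84 and 7.02 in Trem2-/- and between 11.14 and 11.39 in WT, so the 19 arrays followed the Trem2 part of their labels. These levels do not check which arrays carry the 5XFAD transgenes. The array with conflicting labels had 11.08, just below the WT arrays and far above the Trem2-/- arrays. The 19 measured microglial markers averaged between 11.12 and 11.63 per array, and the 14 neuronal markers between 4.02 and 4.34. The microglial list includes Trem2 itself, whose loss lowers the average of the Trem2-/- and Trem2-/-5XFAD arrays. Some arrays stood apart, unevenly between the groups. Klk1b22, a salivary gland kallikrein chosen after its values were seen, reached 7.91 to 9.51 in 5XFAD 1 and 2 and WT 1 and 2 and at most 3.80 elsewhere. Xist was high (8.61 to 9.52) in 5XFAD 1, in Trem2-/- 1, 2 and 3 and in WT 1, 3 and 4. It was low (3.20 to 3.67) in all 6 Trem2-/-5XFAD arrays. Both comparisons of mice with and without the transgenes thus set mostly low-Xist arrays against mostly high-Xist arrays. An imbalance in the sex of the mice cannot be told apart from genotype by the labels. The 10 neutrophil markers averaged 6.21 in Trem2-/-5XFAD 1 and 6.16 in Trem2-/- 1. Counts of calls are also given without the arrays with salivary gland transcripts, without the 2 arrays richest in neutrophil markers and with Xist as a covariate.

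In 5XFAD microglia, 24 of the 61 tested genes (39.3%) were higher than in WT and 0 were lower at an adjusted p under 0.05, where 8.23% of all tested genes were higher and 6.77% lower. The changes were small, from 1.19-fold to 1.51-fold for all but Rpl39l. The estimate lay above 0 for 56 of 61 genes, against 46.6% of all tested genes, and the median difference was 0.24 log2 units, against -0.02 for all genes. For 31 genes every 5XFAD array lay above every WT array, as it did for 7.13% of all genes. In sorted cells, more RNA per cell and a larger share of one kind of microglia cannot be told apart.

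Large-subunit genes made up 13 of the calls, out of 30 tested. Rpl5, which carries a small ribosomal RNA into the large subunit and can inhibit Mdm2, had log2 levels of 10.82, 10.76, 10.88, 10.81 and 10.76 in the 5 5XFAD arrays, against 10.04, 10.34, 10.47 and 10.45 in the 4 WT arrays. The 5XFAD arrays were closely alike and all lay above WT, with WT 1 lowest. The log2 difference was 0.48 ± 0.10 (SE; limma, adjusted p = 0.00181).

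Rpl13, a core large-subunit protein, had log2 levels of 12.61, 12.53, 12.56, 12.47 and 12.50 in 5XFAD, against 12.11, 12.16, 12.20 and 12.21 in WT. Its groups were well apart, and its log2 difference was 0.37 ± 0.08 (adjusted p = 0.00204). Rpl23a, which sits at the exit of the tunnel for new proteins, had 12.70, 12.81, 12.70, 12.79 and 12.78 in 5XFAD, against 12.44, 12.42, 12.30 and 12.41 in WT. No array of the groups overlapped, with a log2 difference of 0.36 ± 0.09 (adjusted p = 0.00802).

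Rpl8, which lies next to the centre where peptide bonds form, had log2 levels of 11.33, 11.17, 11.36, 11.06 and 10.99 in 5XFAD, against 10.66, 10.81, 10.83 and 10.76 in WT. All 5XFAD arrays were higher, 5XFAD 4 and 5 least so. Its log2 difference was 0.42 ± 0.11 (adjusted p = 0.00874). The other 9 called large-subunit genes, named here to complete the account, were Rpl6, Rpl19, Rpl21, Rpl22, Rpl23, Rpl24, Rpl27, Rpl36 and Rpl36a, with log2 differences from 0.25 to 0.37. Among those that did not pass, Rpl10, one of the last proteins to join the large subunit, had a difference of 0.13 ± 0.08 (adjusted p = 0.296), and Rpl38, known in mouse embryos for its part in translating Hox mRNAs, one of 0.21 ± 0.10 (adjusted p = 0.193).

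Of the 21 small-subunit genes, 8 were higher in 5XFAD, and all 21 estimates lay above 0. Rps7, needed for maturation of small-subunit RNA, had log2 levels of 11.53, 11.41, 11.46, 11.44 and 11.31 in 5XFAD, against 10.96, 11.07, 11.15 and 10.80 in WT. Every 5XFAD array lay above every WT array, and the log2 difference was 0.44 ± 0.10 (adjusted p = 0.00365). Rps19, the gene most often mutated in Diamond-Blackfan anaemia in humans, had 9.46, 9.54, 9.35, 9.24 and 9.28 in 5XFAD, against 8.91, 8.97, 9.20 and 8.58 in WT. WT 3 came close to the lowest 5XFAD array without overlap, and the difference was 0.46 ± 0.11 (adjusted p = 0.005).

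Rpsa, a small-subunit protein also known as the laminin receptor, had log2 levels of 11.46, 11.33, 11.53, 11.12 and 11.33 in 5XFAD, against 10.93, 10.96, 11.14 and 10.88 in WT. 5XFAD 4 lay just below WT 3, so these groups overlapped, and the log2 difference was 0.38 ± 0.09 (adjusted p = 0.00821). The other called genes were Rps2, Rps4x, Rps10, Rps12 and Rps18, with log2 differences from 0.25 to 0.41. Rps6, the target of the S6 kinases, had 12.55, 12.70, 12.75, 12.64 and 12.42 in 5XFAD, against 12.27, 12.70, 12.75 and 12.58 in WT. Its groups covered the same range apart from a low WT 1, and the difference of 0.04 ± 0.11 did not pass (adjusted p = 0.874). Rps3, at the entry of the mRNA channel, had a difference of 0.22 ± 0.08 (adjusted p = 0.0867).

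The stalk recruits elongation factors to the ribosome, and Rplp0 anchors Rplp1 and Rplp2 in it. Rplp0 had log2 levels of 12.08, 11.92, 12.03, 11.99 and 12.03 in 5XFAD, against 11.78, 11.72, 11.52 and 11.57 in WT. The groups did not overlap, and the log2 difference was 0.36 ± 0.09 (adjusted p = 0.00819). Rplp1 (0.12 ± 0.08, adjusted p = 0.402) and Rplp2 (0.11 ± 0.09, adjusted p = 0.50) did not pass.

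**Figure D1:**
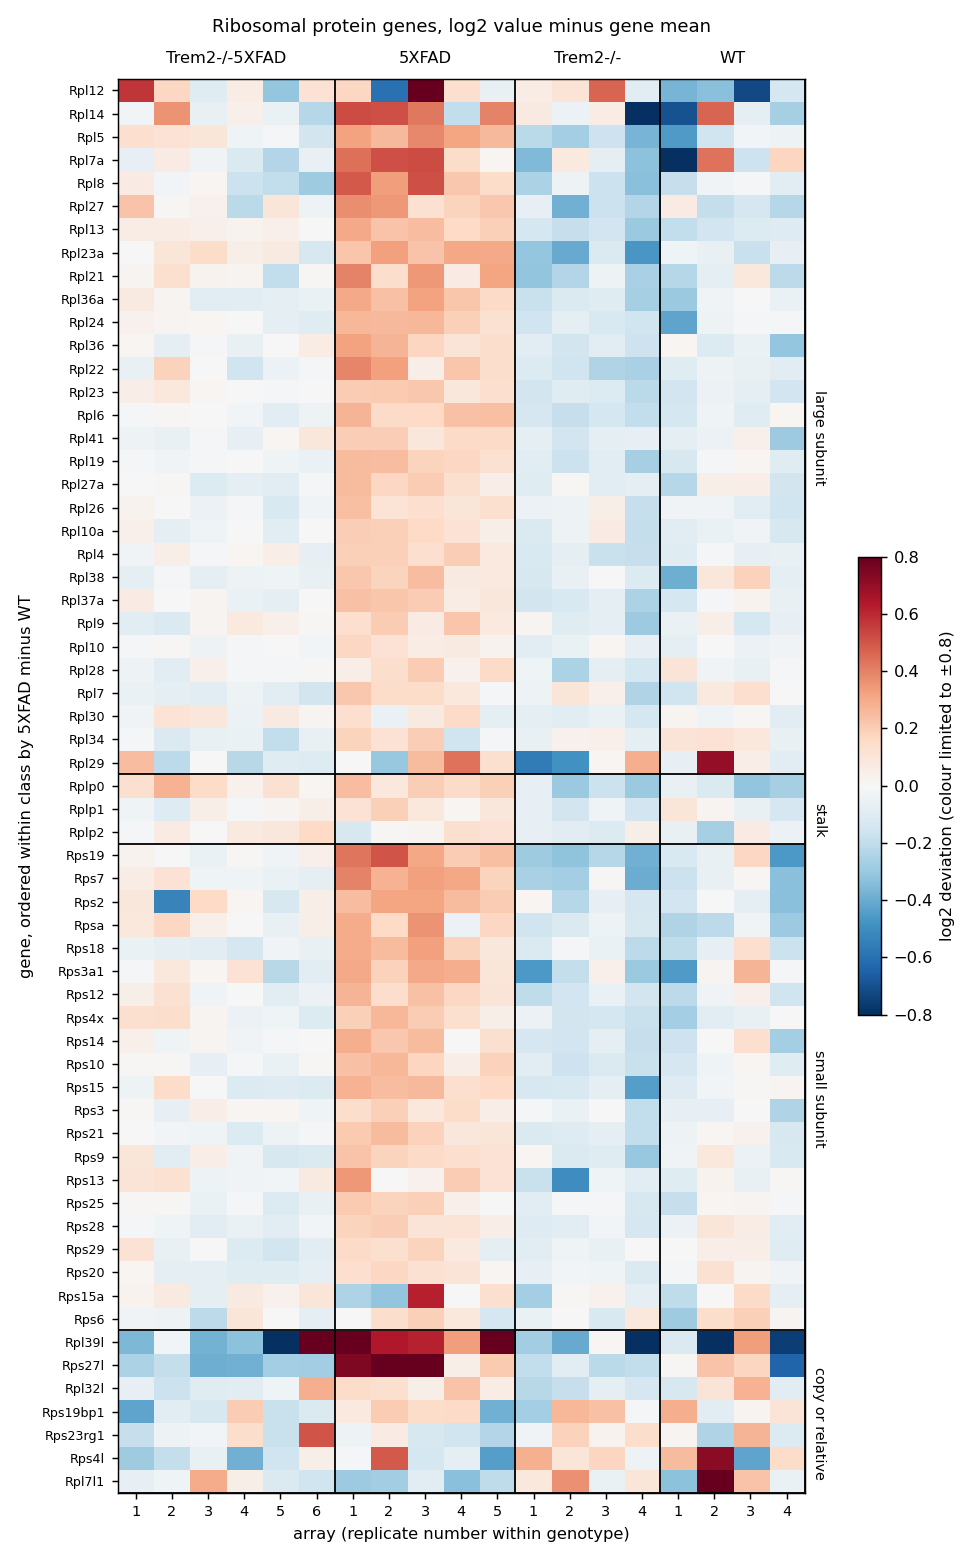
Log2 value of each tested gene (row) on each array (column) minus the gene's mean over the 19 arrays, with genes grouped by class and ordered within a class by the difference 5XFAD minus WT; red is above and blue below the gene's mean, with colours limited to 0.8 either way. Most core genes are red across the 5 5XFAD arrays and pale in the 6 Trem2-/-5XFAD arrays, while the copies and relatives at the bottom vary with no common pattern.

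Among the 7 tested copies and relatives, 2 were higher in 5XFAD. Rps27l, a relative of Rps27 that is induced by the tumour suppressor Trp53, had log2 levels of 9.79, 9.91, 9.85, 9.08 and 9.24 in 5XFAD, against 9.04, 9.27, 9.21 and 8.39 in WT. 5XFAD 1, 2 and 3 stood well above the rest, 5XFAD 4 and 5 lay within the range of WT, and WT 4 was low. The log2 difference was 0.60 ± 0.17 (adjusted p = 0.0211), a fold of 1.51.

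Rpl39l, a relative of Rpl39 known in mice mainly from male germ cells, had log2 levels of 7.01, 5.31, 5.28, 5.00 and 6.57 in 5XFAD, against 4.55, 3.22, 5.00 and 3.91 in WT. The highest WT array equalled the lowest 5XFAD array to 2 decimals, and 5XFAD 1 and 5 stood out. Its difference was the largest of the set, 1.66 ± 0.46 (adjusted p = 0.0171), and rested on a weak signal: its mean intensity was 65.8 in 5XFAD and 18.9 in WT, where the median probe set of an array lay between 25.7 and 27.8. Rpl7l1, a nucleolar relative of Rpl7, had the lowest estimate, -0.42 ± 0.17 (adjusted p = 0.104), while Rpl7 had 0.10 ± 0.09 (adjusted p = 0.533). Rpl22 was called (0.30 ± 0.09, adjusted p = 0.0333), and its relative Rpl22l1, like Rpl3, Rpl11, Rpl13a, Rpl39 and Rps27, had only probe sets shared with other genes and was not analysed here. Rpl3l and Rpl10l, relatives known from muscle and testis, did not pass the filter on low values, with group means of 3.31 to 3.35 for Rpl3l and 3.72 to 3.98 for Rpl10l.

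The number of calls for 5XFAD against WT depended on which arrays were used. Without the 4 arrays with salivary gland transcripts, which left 3 5XFAD and 2 WT arrays, the median difference was 0.20 and 1 gene, Rplp0, passed. The count was 10 genes with a median of 0.12 after quantile normalization, 14 without WT 4 and 15 without 5XFAD 1. Of all 12728 tested genes, 730, 961, 994 and 916 were higher in these settings, in the same order. Without the salivary arrays, 1 of 61 was thus a smaller share than that of all genes.

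Trem2-/-5XFAD microglia had lower levels than 5XFAD microglia in 8 of the 61 genes (13.1%), and 0 were higher, where 4.46% of all tested genes were lower and 3.21% higher. The estimate lay below 0 for 58 of 61 genes, against 42.6% of all genes, with a median of -0.18 log2 units against 0.04 for all genes. For 28 genes every Trem2-/-5XFAD array lay below every 5XFAD array, as it did for 4.11% of all genes. The 5XFAD arrays are shared with the comparison against WT, so these values are not independent of those above.

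Rps27l fell most clearly. It had log2 levels between 8.64 and 8.84 in the 6 Trem2-/-5XFAD arrays (median 8.76), against 9.79, 9.91, 9.85, 9.08 and 9.24 in 5XFAD. The Trem2-/-5XFAD arrays were tightly grouped below all 5XFAD arrays. The log2 difference was -0.84 ± 0.16 (limma, adjusted p = 0.00134), a fold of 0.561, and this call was kept in all 35 alternative settings tried.

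Rpl8 had log2 levels from 10.56 to 10.90 in Trem2-/-5XFAD (median 10.74), against 11.33, 11.17, 11.36, 11.06 and 10.99 in 5XFAD. The groups did not overlap, although 5XFAD 5 lay close to the highest Trem2-/-5XFAD array. Its difference was -0.44 ± 0.10 (adjusted p = 0.00495), a fold of 0.737, kept in 34 of 35 settings. Rpl36a, which contacts the tRNA leaving the ribosome, had 11.37 to 11.53 in Trem2-/-5XFAD (median 11.40), against 11.76, 11.69, 11.78, 11.68 and 11.61 in 5XFAD. It was lower in every Trem2-/-5XFAD array, by -0.28 ± 0.08 (adjusted p = 0.0307). Rpl6, an outer protein of the large subunit, had 11.40 to 11.50 in Trem2-/-5XFAD (median 11.47), against 11.76, 11.64, 11.64, 11.72 and 11.72 in 5XFAD, again without overlap and with a difference of -0.24 ± 0.07 (adjusted p = 0.0392).

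Of the small-subunit genes, Rps18, in the head of the subunit, had log2 levels of 11.60 to 11.71 in Trem2-/-5XFAD (median 11.67), against 12.03, 11.99, 12.07, 11.91 and 11.83 in 5XFAD, with no overlap and a difference of -0.30 ± 0.08 (adjusted p = 0.0237). Rps19 had 8.98 to 9.07 in Trem2-/-5XFAD (median 9.04), against 9.46, 9.54, 9.35, 9.24 and 9.28 in 5XFAD. The Trem2-/-5XFAD arrays were nearly equal and all lower, with a difference of -0.34 ± 0.10 (adjusted p = 0.0337). Rps7 had 11.06 to 11.25 in Trem2-/-5XFAD (median 11.10), against 11.53, 11.41, 11.46, 11.44 and 11.31 in 5XFAD, a difference of -0.30 ± 0.09 (adjusted p = 0.0416). Rpl39l, at 3.01 to 5.59 in Trem2-/-5XFAD (median 4.32), was lower by -1.47 ± 0.42 (adjusted p = 0.0337), but Trem2-/-5XFAD 6 reached above 3 of the 5XFAD arrays.

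Several genes called against WT did not pass here, among them Rplp0, Rpsa, Rpl13, Rpl5 and Rpl23a. Of the other genes given below, Rplp1, Rplp2, Rps6, Rps3 and Rpl38 passed in neither comparison. Rplp0 had log2 levels of 11.85 to 12.11 in Trem2-/-5XFAD (median 11.96), close to its 11.92 to 12.08 in 5XFAD, with a difference of -0.06 ± 0.08 and a 95% interval from -0.23 to 0.12 (adjusted p = 0.771). For Rplp1 the difference was -0.10 ± 0.07 (adjusted p = 0.480) and for Rplp2 0.03 ± 0.08 (adjusted p = 0.866). Rpsa had -0.14 ± 0.09 (adjusted p = 0.386), Rpl13 -0.19 ± 0.07 (adjusted p = 0.120), Rpl5 -0.28 ± 0.09 (adjusted p = 0.0611) and Rpl23a -0.24 ± 0.08 (adjusted p = 0.0855). The estimates of Rpl5 and Rpl23a were as large as those of the called Rpl36a and Rpl6. Rps6 had -0.10 ± 0.10 (adjusted p = 0.619), Rps3 -0.12 ± 0.07 (adjusted p = 0.384) and Rpl38 -0.21 ± 0.09 (adjusted p = 0.201).

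**Figure D2:**
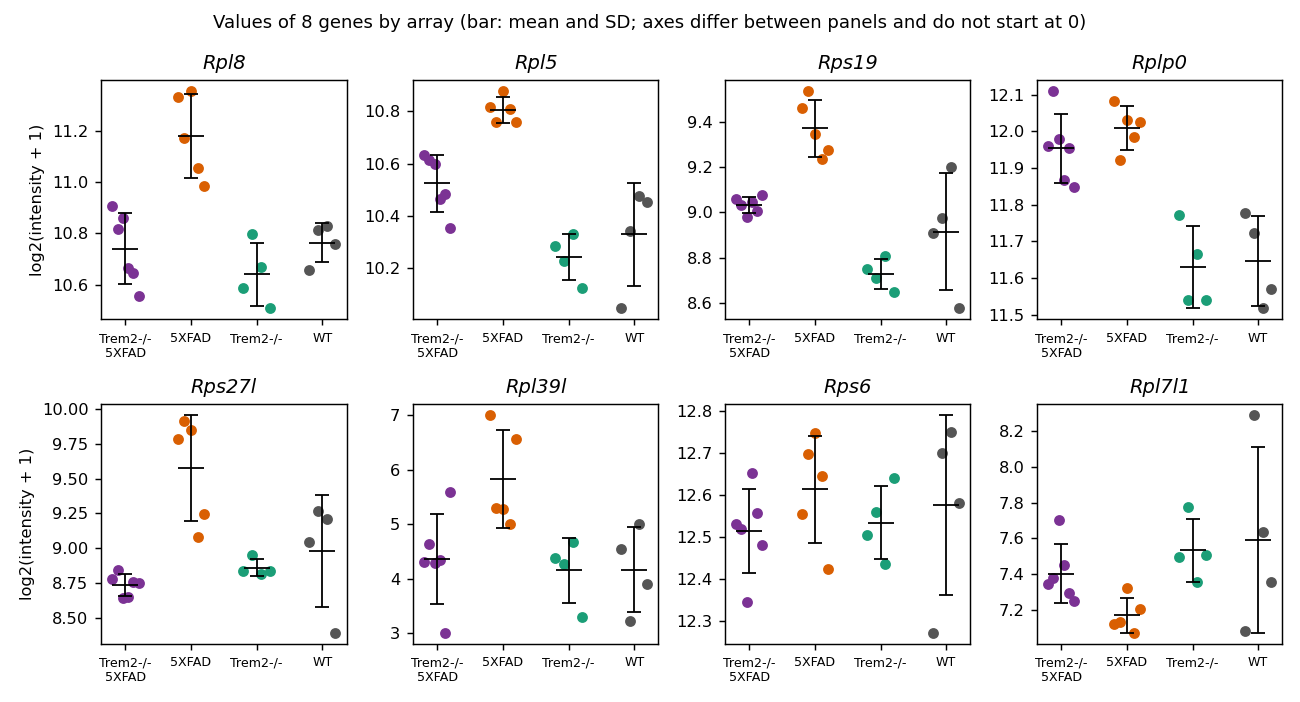
Log2(intensity + 1) of 8 genes on every array (points), with the mean and SD of each group (n = 6 Trem2-/-5XFAD, 5 5XFAD, 4 Trem2-/-, 4 WT). Rpl8, Rpl5, Rps19 and Rps27l are highest in 5XFAD, Rplp0 is similar in Trem2-/-5XFAD and 5XFAD, and the 4 groups overlap in Rps6.

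The upstream sequence of 4 of the 8 lowered genes is shown, Rps27l because its change was the most stable and the others because they hold the ETS core in the last 100 bases before the start. Windows end at the base before the annotated start, are read on the gene's strand in build GRCm38.p6 from RefSeq, and have CCGGAAG, or its reverse complement, in capitals. Rps27l has 2 listed starts, and its upstream one is shown.
Rps27l, chr9:66945986-66946085, plus strand: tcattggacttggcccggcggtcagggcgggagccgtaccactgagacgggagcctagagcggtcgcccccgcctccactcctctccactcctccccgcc
Rps18, chr17:33955666-33955765, minus strand: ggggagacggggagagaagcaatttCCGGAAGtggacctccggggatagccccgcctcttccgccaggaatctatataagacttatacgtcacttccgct
Rps7, chr12:28635954-28636053, minus strand: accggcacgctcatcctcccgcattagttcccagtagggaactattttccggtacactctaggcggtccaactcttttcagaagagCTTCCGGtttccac
Rpl39l, chr16:10170128-10170227, plus strand: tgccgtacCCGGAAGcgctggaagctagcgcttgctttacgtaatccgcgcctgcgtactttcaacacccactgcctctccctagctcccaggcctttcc
The ETS core was found in this window for 3 of the 7 lowered genes with an entry, Rps18, Rps7 and Rpl39l, against 11 of the 51 ribosomal protein genes with an entry (21.6%) and 5.22% of all genes. In the longer window, from 250 bases before the start to 50 after it, 5 of the 7 held it. The shares there were 19 of the 51 ribosomal protein genes (37.3%) and 9.93% of all genes. With 7 genes, a difference between the lowered genes and the rest of the set was not tested.

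The lowered set was sensitive to single arrays. It held 2 genes, Rps27l and Rpl8, without 5XFAD 1 or without Trem2-/-5XFAD 4; 3 genes without 5XFAD 2, 5XFAD 3, Trem2-/-5XFAD 3 or Trem2-/-5XFAD 5; 4 without Trem2-/-5XFAD 1 or 6; and 5 without 5XFAD 4. It held 1 gene, Rps27l, without the 4 arrays with salivary gland transcripts, and 3 after quantile normalization, whereas averaging all probe sets of a gene gave 19. Of all 12728 tested genes, 405 were lower without 5XFAD 1 and 443 without Trem2-/-5XFAD 4, shares near that of 2 in 61. Without the salivary arrays 325 were lower, a larger share than 1 in 61, and after quantile normalization 498. With averaged probe sets 589 of 12667 genes were lower.

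**Figure D3:**
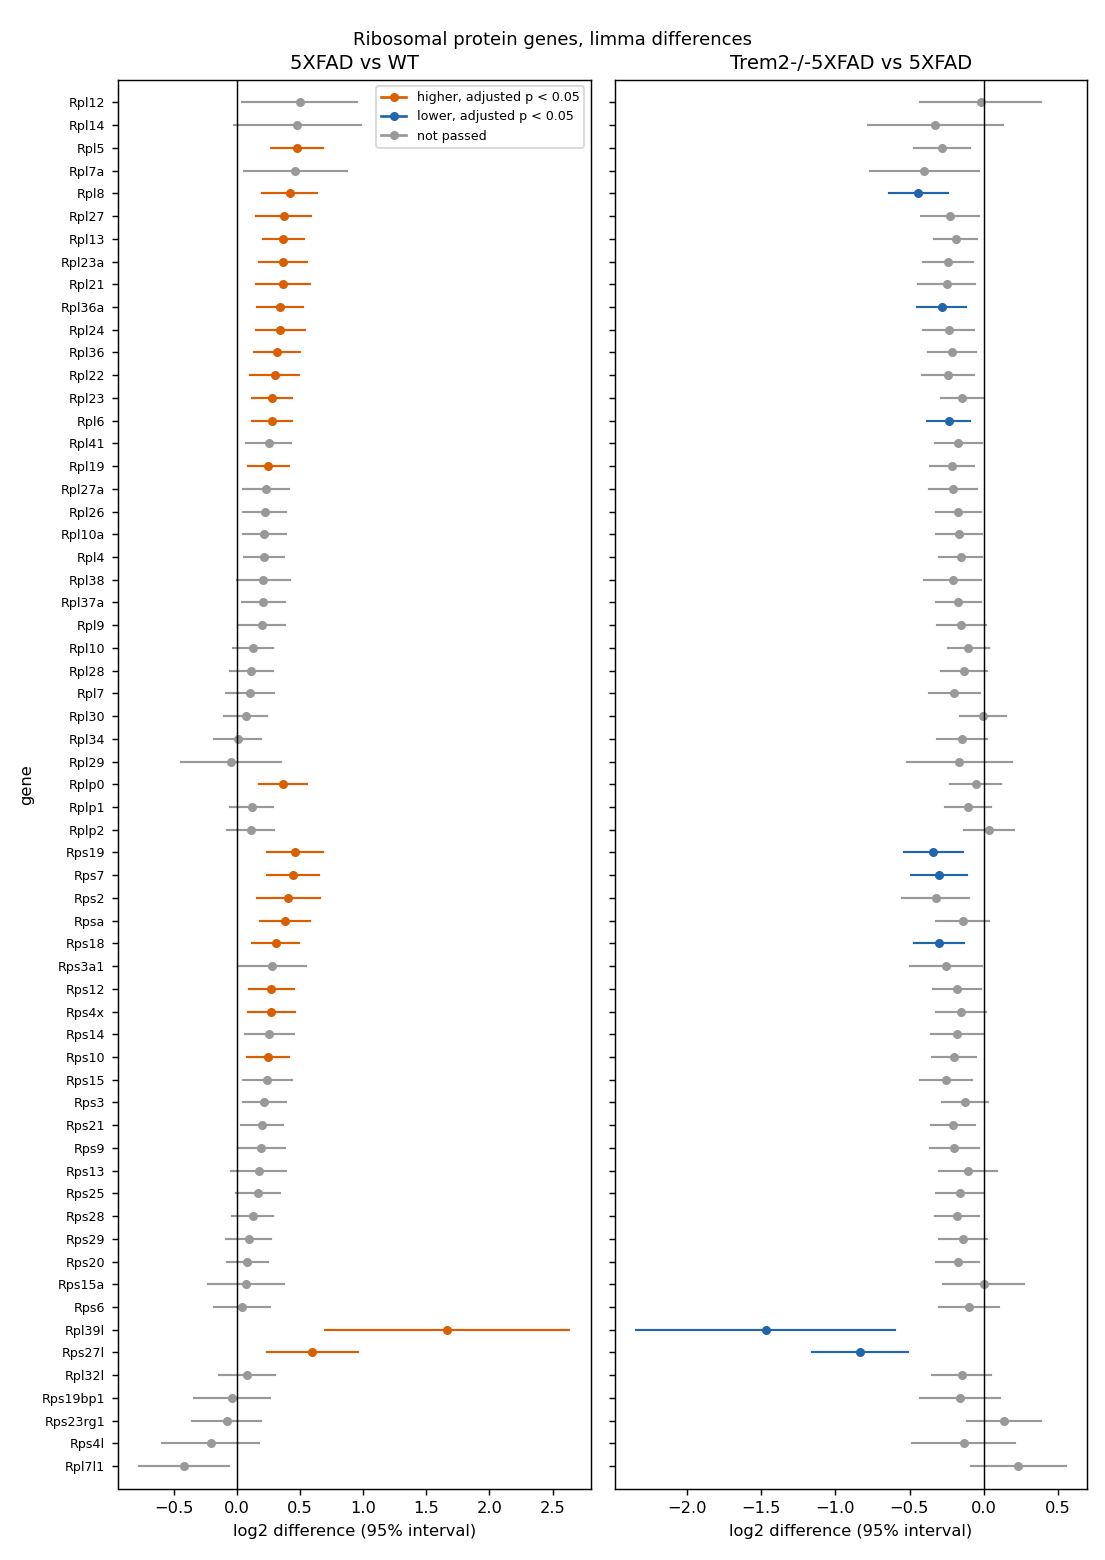
Log2 difference with its 95% interval (limma) for the 61 tested genes, 5XFAD minus WT on the left and Trem2-/-5XFAD minus 5XFAD on the right; orange marks genes higher and blue genes lower at an adjusted p under 0.05. In 5XFAD minus WT 56 estimates are above 0, and in Trem2-/-5XFAD minus 5XFAD 58 are under 0; both use the same 5XFAD arrays.

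In mice that lacked Trem2, the 5XFAD transgenes were accompanied by 1 called gene. Rpl23a had log2 levels of 12.35 to 12.63 in Trem2-/-5XFAD (median 12.54), against 12.17, 12.08, 12.36 and 12.01 in Trem2-/-. Only Trem2-/- 3 reached the lowest Trem2-/-5XFAD array, and the log2 difference was 0.36 ± 0.09 (adjusted p = 0.0296). This was 1 of 61 genes higher (1.64%), near the 1.63% of all tested genes, and 0 were lower, against 0.558%. The median difference was 0.11 log2 units, against 0.02 for all genes, with 50 estimates above 0, against 53.7% of all genes. For 14 genes the groups did not overlap in the upward direction, against 3.95% of all genes.

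Rplp0 came next, with log2 levels of 11.85 to 12.11 in Trem2-/-5XFAD (median 11.96), against 11.77, 11.54, 11.67 and 11.54 in Trem2-/-. All Trem2-/-5XFAD arrays were higher, and the difference of 0.32 ± 0.09 just missed the threshold (adjusted p = 0.0548). Rps27l had log2 levels from 8.64 to 8.84 in Trem2-/-5XFAD, against 8.84, 8.95, 8.82 and 8.84 in Trem2-/-, and an estimate below 0 (-0.12 ± 0.17, adjusted p = 0.801). The Rpl23a call was lost without Trem2-/- 1, 2 or 4 and without Trem2-/-5XFAD 1, 3, 4 or 5. It was also lost when all probe sets of a gene were averaged, where 1 other gene passed instead.

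Without the transgenes, loss of Trem2 was accompanied by 0 called genes in either direction (limma, adjusted p), where 0.385% of all tested genes were higher and 0.228% lower. At an unadjusted p under 0.05, 1 gene was higher, Rpl12 (0.53 ± 0.23, adjusted p = 0.341), and 1 was lower, Rpl23a (-0.24 ± 0.10, adjusted p = 0.298), where 6.58% of all genes were higher and 5.81% lower at that level. Rpl12 was measured by a weak probe set, with log2 levels of 5.24, 5.29, 5.64 and 5.09 in Trem2-/-, against 4.81, 4.84, 4.45 and 5.04 in WT. The median difference over the 61 genes was -0.06 log2 units, against -0.01 for all genes.

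Whether the response to the transgenes differed between mice without and with Trem2 was tested directly as the interaction, the difference Trem2-/-5XFAD minus Trem2-/- less the difference 5XFAD minus WT. No ribosomal protein gene passed (0 of 61 by limma), where 1.02% of all genes were higher and 1.58% lower, and 5 were lower at an unadjusted p under 0.05, as were 6.66% of all genes: Rps27l, Rpl39l, Rps18, Rpl8 and Rps2. Rps27l had the smallest p, with a difference of -0.72 ± 0.24 (adjusted p = 0.135), followed by Rpl39l with -1.46 ± 0.64 (adjusted p = 0.30). The median over the 61 genes was -0.13, against 0.03 for all genes, and 52 of the 61 estimates lay below 0, against 46.1% of all genes. A smaller rise in mice without Trem2 is thus not shown gene by gene.

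Averaged over the 54 core genes, the arrays lay between 11.00 and 11.09 log2 units in Trem2-/-5XFAD and between 11.17 and 11.29 in 5XFAD, against 10.85 to 11.00 in Trem2-/- and 10.90 to 11.06 in WT. Every 5XFAD array lay above every other array, and the Trem2-/-5XFAD arrays lay above the Trem2-/- arrays and overlapped with WT. Means were 11.04 ± 0.03 in Trem2-/-5XFAD, 11.23 ± 0.05 in 5XFAD, 10.93 ± 0.06 in Trem2-/- and 10.98 ± 0.08 in WT (SD, n = 6, 5, 4 and 4).

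Ribosomal protein genes take up many of the brightest probe sets, so other bright genes were compared on the same arrays. The 369 tested genes outside the set with a mean log2 level of at least 10 had a median difference of -0.01 in 5XFAD against WT, and 21.4% of them were higher and 17.9% lower. The 43 ribosomal protein genes as bright had a median of 0.25, with 19 higher and 0 lower. For Trem2-/-5XFAD against 5XFAD the medians were 0.01 in the 369 genes and -0.18 in the 43, and 5 of the 43 were lower, a share close to the 11.7% of the 369 genes that were lower. The share of bright genes called in each direction was larger than that of all genes, so the backgrounds of 8.23% and 4.46% are low for genes this bright. When each array was centred on the 369 genes, a setting chosen after the data were seen, 22 genes were higher in 5XFAD than in WT and 4 were lower in Trem2-/-5XFAD than in 5XFAD. Of all 12728 tested genes, 1021 were higher and 511 lower in those comparisons.

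**Figure D4:**
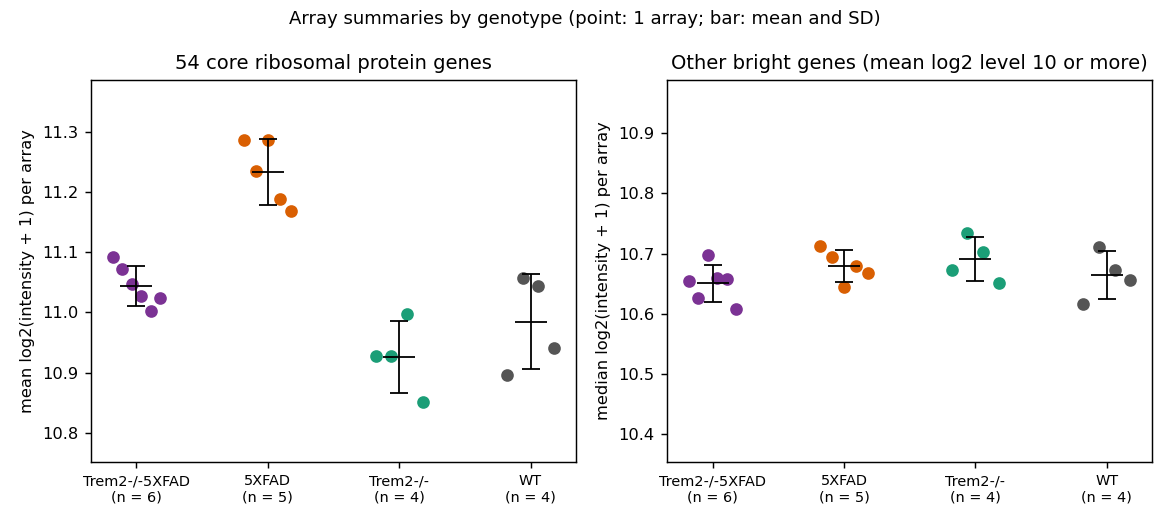
Mean log2(intensity + 1) per array of the 54 core genes (left) and median of 369 other genes with a mean level of at least 10 (right), with the mean and SD of each genotype; axes do not start at 0 and cover the same span. The 5 5XFAD arrays (11.17 to 11.29) lie above all others on the left, and the groups overlap on the right.

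The genes varied little within a group. The median within-group SD was 0.10 log2 units over the 61 genes, against 0.22 over all tested genes, and it was smallest for Rpl10, Rpl4, Rpl6, Rpl23 and Rpl13. Of the 61 genes 43 had a mean log2 level of at least 10, against 369 of the other tested genes. The SD was not compared between genes of equal brightness. The largest SDs belonged to Rpl39l (0.80), Rpl14 (0.40), Rpl12 (0.36), Rpl7a (0.32) and Rpl29 (0.30). Rpl14 and Rpl7a are large-subunit proteins whose estimates in 5XFAD against WT, 0.48 ± 0.24 (adjusted p = 0.209) and 0.46 ± 0.20 (adjusted p = 0.128), were as large as those of called genes but did not pass. Rpl29 (-0.05 ± 0.19, adjusted p = 0.906) was the only core gene with an estimate below 0 there. As a description, the deviations of a gene from its group means correlated with those of the core mean, taken without that gene. The median r was 0.56 over the 61 genes and 0.00 over all genes. The 19 arrays share scale and sample quality between genes.

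Many ribosomal protein genes have processed copies elsewhere in the genome, and probe sets for them can take up signal from one another. The 63 genes had 195 probe sets of their own, 25 genes with 1 and 38 with several, up to 10 for Rpl23a, and another 199 probe sets named a ribosomal protein gene together with other genes and were not used. When every probe set was tested, 188 of the 195 passed the filter. In 5XFAD against WT, 78 of them were higher and 0 lower, with a median of 0.27, where 8.61% of all 13801 probe sets were higher. In Trem2-/-5XFAD against 5XFAD, 50 were lower and 0 higher, with a median of -0.21, where 4.80% of all were lower.

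Probe sets of one gene did not always tell the same story. The 7 probe sets of Rps18 ran from 0.29 to 0.51 in 5XFAD against WT and from -0.69 to -0.29 in Trem2-/-5XFAD against 5XFAD. The 3 of Rps7 had differences of 0.44, 0.75 and 0.95 in 5XFAD against WT. Rps6 was split: its brightest probe set had 0.04 ± 0.11, another 0.30 ± 0.10 (adjusted p = 0.0404 over all probe sets), so the level of Rps6 mRNA cannot be settled here. Probe sets of 1 gene are not independent measurements of it.

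**Figure D5:**
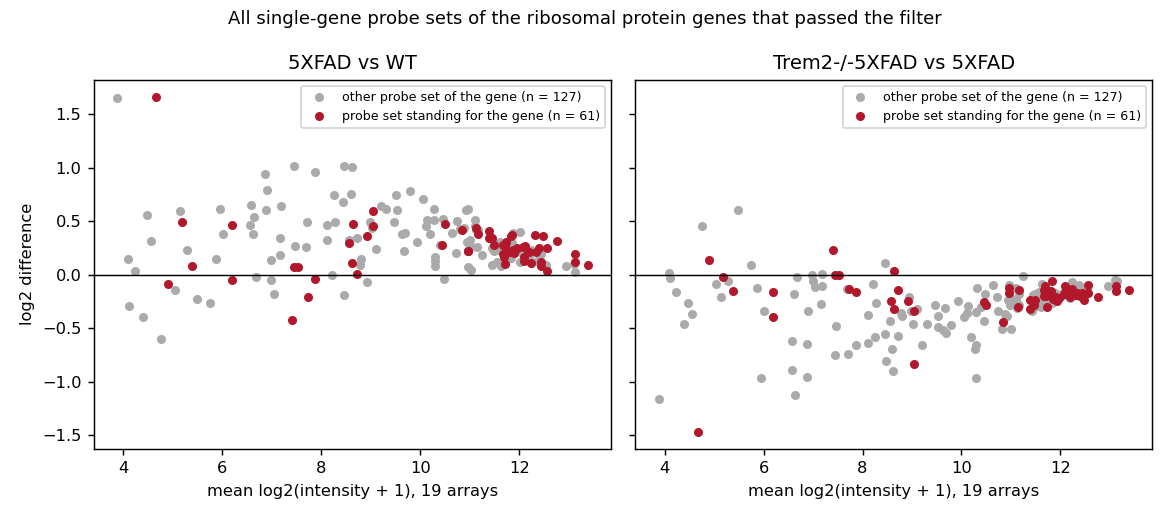
Log2 difference (vertical) against mean log2(intensity + 1) over 19 arrays (horizontal) for the 188 tested probe sets of the ribosomal protein genes; red points are the 61 that stand for a gene and grey points the others. In 5XFAD against WT 170 of 188 lie above 0, and in Trem2-/-5XFAD against 5XFAD 179 lie below 0.

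Other parts of the translation machinery were described from lists. The lists share members, Eif4b and Npm1 among them, so their counts are not separate. The shares of all tested genes to set beside the counts are 8.23% higher and 6.77% lower in 5XFAD against WT, and 3.21% higher and 4.46% lower in Trem2-/-5XFAD against 5XFAD. Other mRNAs known to carry a TOP tract had 10 of 16 tested members (62.5%) higher in 5XFAD than in WT and 0 lower, with a median of 0.45. They were led by Vim, an intermediate filament protein (1.64 ± 0.17, adjusted p = 4.36e-07), Eif4b, a helper of the initiation helicase (0.75 ± 0.11, adjusted p = 4.41e-05), Gas5, a host of small nucleolar RNAs (0.53 ± 0.08, adjusted p = 9.62e-05), and Npm1, a nucleolar chaperone (0.65 ± 0.12, adjusted p = 0.000645). Of the 16, 8 were lower in Trem2-/-5XFAD than in 5XFAD, with a median of -0.27, and Vim had -0.63 ± 0.15 (adjusted p = 0.0113).

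Among 31 initiation factors 8 (25.8%, against 8.23% of all genes) were higher in 5XFAD and 0 lower, with a median of 0.17. Besides Eif4b, the subunits of the Eif3 scaffold Eif3k (0.57 ± 0.09, adjusted p = 0.000122), Eif3h (0.50 ± 0.10, adjusted p = 0.00103) and Eif3f (0.57 ± 0.12, adjusted p = 0.00156) rose. Between Trem2-/-5XFAD and 5XFAD 5 initiation factors (16.1%, against 4.46% of all genes) were lower and 1 higher, with Eif3k at -0.52 ± 0.08 (adjusted p = 0.000253). Of 9 elongation and termination factors 3 were higher and 1 lower in 5XFAD: Eef1b2 (0.61 ± 0.13) and Eef1d (0.40 ± 0.10), which recharge the factor that delivers tRNA, and Eef2, which moves the ribosome along (0.29 ± 0.09), rose, and Eef2k, the kinase that inhibits Eef2, fell by 1.02 ± 0.17 on the log2 scale (adjusted p = 0.000215). In Trem2-/-5XFAD Eef2k was higher than in 5XFAD, by 0.57 ± 0.15 (adjusted p = 0.0239).

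Of 68 ribosome biogenesis genes 7 (10.3%, near the 8.23% of all genes) were higher in 5XFAD than in WT and 0 lower, with a median of 0.15, led by Nhp2, a protein of RNA-modifying particles (0.74 ± 0.13), Npm1, Ebna1bp2 (0.63 ± 0.13) and Imp3 (0.74 ± 0.17), all with adjusted p-values of 0.0051 or less. In Trem2-/-5XFAD, 3 were lower than in 5XFAD (4.41%, near the 4.46% of all genes). Of 15 genes for RNA polymerase I and its factors, which make ribosomal RNA, 0 were higher and 1 lower in 5XFAD, Tbp (-0.54 ± 0.15, adjusted p = 0.0179), with a median of -0.03. Of 24 mTOR and translation control genes 4 (16.7%) were higher and 1 lower: Rragd, a GTPase that brings mTOR to lysosomes, had 1.85 ± 0.22 (adjusted p = 3.5e-06), Larp1 0.41 ± 0.12 (adjusted p = 0.0205), Lamtor2 0.42 ± 0.13 (adjusted p = 0.025), and Eif4ebp2, an inhibitor of initiation, -0.46 ± 0.12 (adjusted p = 0.00951). Rragd was lower in Trem2-/-5XFAD than in 5XFAD, with -1.03 ± 0.20 (adjusted p = 0.00192). The 77 mitochondrial ribosomal protein genes had 5 higher (6.49%, under the 8.23% of all genes) and 1 lower in 5XFAD, with a median of 0.06, and 4 lower (5.19%, near the 4.46% of all genes) in Trem2-/-5XFAD against 5XFAD, with a median of -0.19. Fau, a small-subunit protein outside the name rule, had 0.19 ± 0.08 in 5XFAD against WT (adjusted p = 0.132).

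Markers of other cells moved with some groups. The astrocyte list, with 10 of 12 members tested, averaged 5.16 to 5.45 per array in Trem2-/-5XFAD and 5.45 to 5.81 in 5XFAD, against 4.96 to 5.11 in Trem2-/- and 5.11 to 5.35 in WT. Of the 10 tested, 2 were higher and 1 lower in 5XFAD than in WT: Gfap by 2.16 ± 0.18 (adjusted p = 2.86e-08) and S100b by 1.5 ± 0.32 (adjusted p = 0.00239) were higher, and Slc1a3 was lower. Gfap (-0.76 ± 0.16), S100b (-1.12 ± 0.29) and Aldoc (-0.87 ± 0.24) were the 3 that were lower in Trem2-/-5XFAD than in 5XFAD, the same direction as the ribosomal protein genes. These genes are named because they are the called members. Aqp4 and Aldh1l1, also astrocyte markers, exceeded the 40th percentile on 0 arrays. Border macrophage markers averaged 5.90 to 6.48 in Trem2-/-5XFAD and 5.04 to 5.65 in 5XFAD, against 5.99 to 6.97 in Trem2-/- and 5.58 to 6.45 in WT, with 11 of 15 higher and 1 lower in Trem2-/-5XFAD than in 5XFAD. For border macrophage markers these were shares of 73.3% and 6.67%, against 3.21% higher and 4.46% lower of all genes. Of the 19 microglial markers 10 were lower (52.6%, against 6.77% of all genes) and 0 higher (against 8.23%) in 5XFAD than in WT. With the mean of neuronal, astrocyte, oligodendrocyte and vascular markers as a covariate, the median difference in 5XFAD against WT was 0.25. Of the 61 genes 3, Rpl5, Rpl8 and Rpl13, passed, a share near that of all tested genes (608 of 12728 higher). In Trem2-/-5XFAD against 5XFAD the median was -0.19 and 2 passed, Rpl8 and Rps27l, where 273 of all genes were lower. With Xist as a covariate 20 genes were higher and 1, Rpl7l1, lower in 5XFAD than in WT, and 5 were lower in Trem2-/-5XFAD. Over all 12728 genes these numbers were 1020, 708 and 516. The part of astrocyte genes taken singly, and that of border macrophages, in the result was not tested.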

How the data were processed

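Microglial RNA was measured on one-colour arrays, from 2 ng of total RNA per sample made into biotinylated cRNA, per the labels' protocols. The deposited table held linear intensity for 24679 probe sets and 20 arrays. Its normalization and tool were not given in the sources used here. GEO's platform annotation named 1 gene for 21354 probe sets, several for 1275 and none for 2050, and of the 21354 gene IDs 21277 matched the GRCm38.p6 reference table. Each gene was represented by its probe set of highest mean. Probe sets shared by several genes were left out, which kept 20 ribosomal protein genes from being measured.

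Values were taken as log2(intensity + 1). Genes above the array's 40th percentile on at least 4 arrays were tested. Differences came from limma 3.58.1 (R 4.3.3). A joint model of 19 arrays was used (residual degrees of freedom 15, prior 5.29), with Benjamini-Hochberg adjustment over 12728 genes and a threshold of 0.05; errors beside log2 differences are standard errors. All adjusted p-values are limma's. The number of arrays limits the precision, and p-values measure the spread between arrays, which may be partly technical. Correlations between arrays ran from 0.967 to 0.992, and no columns were identical. The test was tried on simulated data in which genes varied independently. The ribosomal protein genes varied together within groups, so that trial does not bear on their counts of calls.

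The genes followed, the gene lists and the alternatives were chosen with earlier results of these data known, and the mitochondrial list, taken by symbol, was added last. Named genes are Trem2; all called members of a comparison, or the 8 with the smallest p where over 10 were called; the stalk genes; paralogue pairs; a short set of well-known members; the 5 most and 5 least variable; and the 4 called genes with the smallest p of each list. Others named are given to complete a count. Motifs were searched in RefSeq promoter sequences.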

Additional observations from a re-analysis of the deposited data

Results flagged for a closer look

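In each of 248 groups of 4 to 6 arrays (61 genes and the core mean in 4 genotypes) the array farthest from the rest was tested, and 11 groups (4.44%) had an array that stood apart (a gap to the nearest array large against the range of the group), where chance gives about 1 in 20. In Trem2-/-5XFAD these were Rpl32l on array 6 (5.67), Rps20 on array 1 (12.46) and Rps21 on array 4 (11.79). In 5XFAD they were Rpl14 on array 4 (8.44), Rpl26 on array 1 (11.20) and Rps19bp1 on array 5 (7.49). In Trem2-/- they were Rpl14 on array 4 (7.43), Rpl41 on array 2 (12.41) and Rps15 on array 4 (11.49). In WT they were Rpl24 on array 1 (10.96) and Rpl34 on array 4 (8.65). No array held more than 2 of the 11, and of these genes Rpl24 was among the 24 higher in 5XFAD than in WT.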

How the results depend on the processing

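Of 10614 values of single genes under up to 35 alternatives, 10278 kept their side of the threshold, 272 no longer passed and 64 newly passed. The sign of the estimate changed in 348 values and in 0 of those that passed with or without the alternative. The main estimates of the values that changed sign reached 0.29 in size. The direction of uncalled genes is therefore not always settled, and not only for estimates near 0. The number of genes called in 5XFAD against WT was 24, and became 10 after quantile normalization, 8 when the 2 groups were fitted alone, 3 with the other brain cell markers as a covariate and 1 without the 4 arrays with salivary gland transcripts. In the same order, 1047, 961, 781, 608 and 730 of all 12728 tested genes were higher. Leaving out 1 array at a time gave 14 to 24 calls. In Trem2-/-5XFAD against 5XFAD the number called was 8, and became 17 with a pseudocount of 16, 3 after quantile normalization, 19 with the mean of all probe sets, 14 with array weights, 3 with the replicate block, 2 with the brain cell covariate, 5 with Xist as a covariate and 1 without the 4 salivary arrays. In the same order, 568, 629, 498, 589, 709, 455, 273, 516 and 325 of all tested genes were lower. Leaving out 1 array gave 2 to 10 calls. For alternatives chosen after seeing the data the number called became 4 with arrays centred on other bright genes and 3 without the 2 arrays richest in neutrophil markers. Of all tested genes 511 and 469 were lower in these. In Trem2-/-5XFAD against Trem2-/- the count was 1, and became 3 with a pseudocount of 16, 2 with array weights, with the array of conflicting labels put in Trem2-/- or with centring on bright genes, and 0 with median centring, quantile normalization, the groups fitted alone, that array put in WT, the replicate block, the brain cell or Xist covariate, or without the 2 neutrophil-rich arrays; leaving out 1 array gave 0 to 2. Trem2-/- against WT and the interaction kept 0 calls throughout; the interaction has no fit of fewer groups. With the mean of all probe sets the count in Trem2-/-5XFAD against Trem2-/- stayed at 1, but the gene called was not Rpl23a. The causes of these shifts were not tested. Leaving out arrays also lowers the number of samples. Over 24 pairs of same-numbered arrays the correlation of deviations ranged from -0.10 to 0.17 (median 0.01) and passed 0.1 in 5, of which 3 were among the 4 pairs of 5XFAD and WT (0.10, 0.16, 0.09 and 0.17 for numbers 1 to 4). The pairs of 5XFAD and WT numbered 1 and 2 are also the arrays with salivary gland transcripts. No comparison had every pair over 0.1, so the numbers were not taken to pair the arrays; with the replicate block the counts were 21, 3, 0, 0 and 0 for 5XFAD against WT, Trem2-/-5XFAD against 5XFAD, Trem2-/- against WT, Trem2-/-5XFAD against Trem2-/- and the interaction. Over all tested genes, median centring changed the split of calls in Trem2-/-5XFAD against 5XFAD to 286 higher and 625 lower (409 and 568 without it), in Trem2-/-5XFAD against Trem2-/- to 141 and 92 (207 and 71) and in the interaction to 78 and 224 (130 and 201). Rpl39l, which had the largest spread within groups, is also a weak signal.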
